A study of Mus musculus with 6 samples.

Results

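The steps from the receptor RANK to the transcription factor NFATc1 were followed in 10 genes, chosen by name for their place in the commitment of precursor cells to the osteoclast fate. They are the receptor gene Tnfrsf11a, the adaptor gene Traf6, the kinase complex genes Tab2 and Map3k7, the NF-kB genes Nfkb1, Nfkb2 and Relb, and the transcription factor genes Nfatc1, Mitf and Prdm1. All 10 were among the 23284 gene names listed for each library, and 9 of them averaged at least 1 FPKM (fragments scaled for transcript length and library size) over the 6 libraries, the level set for testing. Prdm1 fell below it. RNA was sequenced from EGFP-positive cells sorted from the skull vault (calvaria) of CX3CR1-EGFP mice, a reporter strain in which the locus of the fractalkine receptor drives a green fluorescent protein in monocytes and related cells. Every mouse had been given lipopolysaccharide (LPS), a component of bacterial outer membranes, in the calvarial periosteum, and cells were collected 5 days later. With the LPS, 1 group received 10 mg/kg CTLA4-Ig (abatacept), a fusion protein that binds CD80 and CD86, and the control group 10 mg/kg whole human IgG, with 3 libraries each. The titles call the libraries biological replicates, but no label gives the age or number of animals behind a library or says whether animals were pooled, and no group without LPS was analysed here. P-values therefore measure the spread between these libraries.

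RANK is activated by its ligand RANKL on osteoblast-lineage cells, osteocytes and T cells, and osteoprotegerin is a soluble decoy that captures the ligand. The bound receptor recruits TRAF6, which through TAB adaptors activates the kinase TAK1 and from there the canonical NF-kB and MAP kinase branches. A slower, non-canonical branch processes the Nfkb2 product p100 to p52, the partner of RelB. NF-kB and AP-1 then induce NFATc1, which amplifies its own gene with the help of calcium signals and switches on genes of fusion and bone resorption.

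The sorted population was mixed. S100a8, a gene of neutrophils and monocytes, had the highest FPKM in all 6 libraries. The summed FPKM of 13 neutrophil markers was 22.5 to 28.1% of the total under CTLA4-Ig and 17.8 to 20.4% in the controls, ranges that did not overlap. All 13 were measured and higher on average under CTLA4-Ig, 9 of them at an unadjusted p under 0.05 in limma. Over all 10865 tested genes 4.09% were higher at such a p, and 0 had an adjusted p under 0.05. S100a8 and S100a9, which monocytes also use, made up 78.2% of the summed FPKM of the 13 markers. The other 11 held 5.12 to 6.25% under CTLA4-Ig and 3.55 to 4.52% in the controls, again apart, with 11 positive and 8 at an unadjusted p under 0.05; this split was chosen after seeing the data. The 8 monocyte markers held 0.389 to 0.483% under CTLA4-Ig and 0.501 to 0.567% in the controls, but their FPKM sums overlapped (3315 to 3721 and 3640 to 4307), 4 were positive and 0 had an unadjusted p under 0.05 in limma. Macrophage markers (7 genes) summed to 228 to 334 FPKM under CTLA4-Ig and 220 to 263 in the controls. The part of these cell types in the results below was not tested, and in bulk RNA fewer cells of a type and less RNA per cell cannot be told apart. Of 6 markers of mature osteoclasts, Calcr, Ocstamp, Dcstamp and Atp6v0d2 had means under 1 FPKM, while Acp5 averaged 20.2 and Ctsk 3.00. Depth, estimated from the spacing of low values, was 9360000 to 11420000 fragments per library, and the groups overlapped.

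For none of the 10 genes did the difference between CTLA4-Ig and control IgG pass the test, and every 95% interval included 0. Over all 10865 tested genes, limma gave 0% with a Benjamini-Hochberg adjusted p below the threshold of 0.05. An unadjusted p under 0.05 was reached by 659 (6.07%), with 444 higher under CTLA4-Ig (4.09%) and 215 lower (1.98%), or by 347 in all without CTLA4-Ig library 2. Of the 9 tested members 0 were called and 0 had an unadjusted p under 0.05. The median difference of the 9 was -0.03 on the log2(FPKM + 1) scale, with 3 positive and 6 negative, against a median of -0.0063 over all tested genes. The differences ran from -0.20 for Mitf to 0.07 for Relb. A difference on this scale understates that of a gene with few FPKM.

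**Figure D1:**
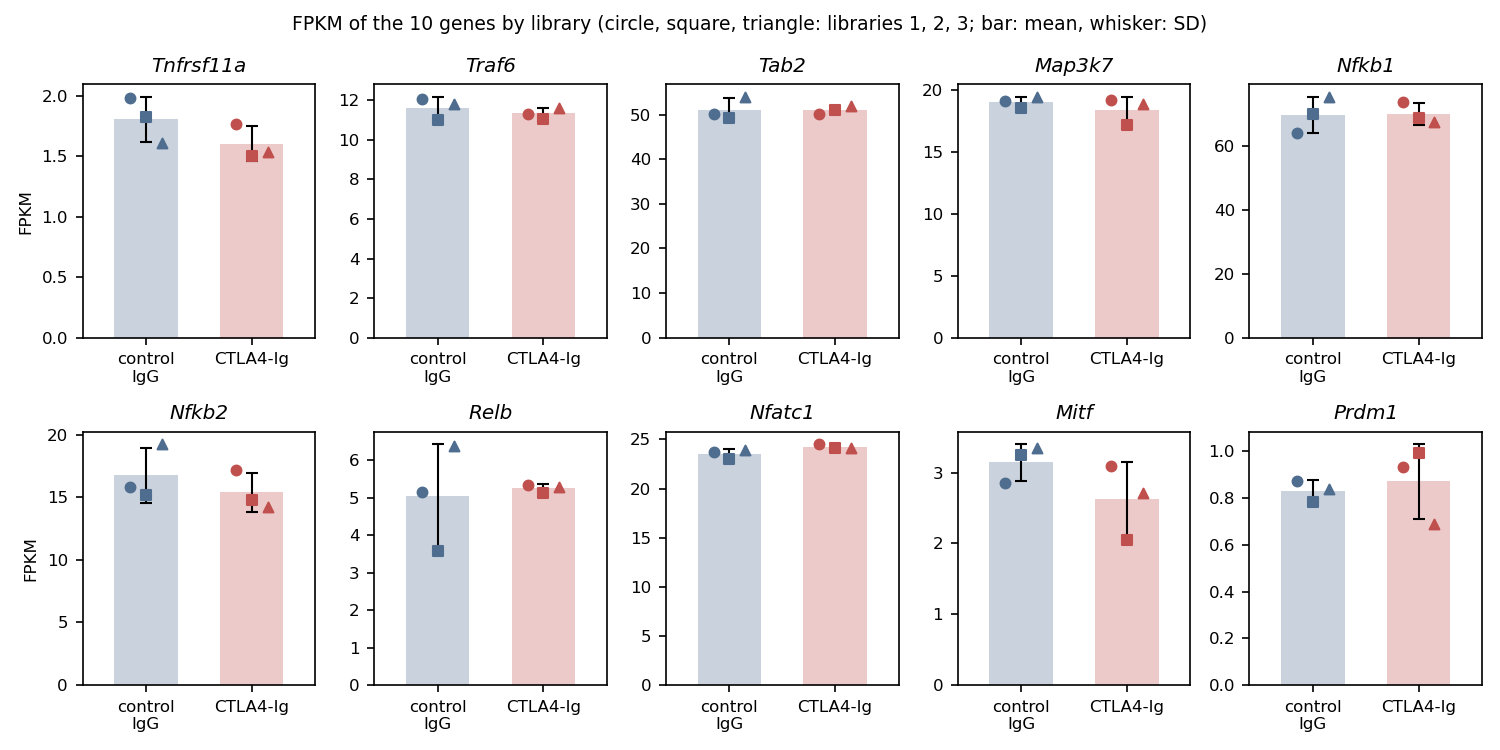
FPKM (vertical axis, from 0) of each of the 10 genes in the 3 control IgG and 3 CTLA4-Ig libraries. Points are libraries, bars group means and whiskers the SD; the points of the groups overlap for every gene except Nfatc1, where the lowest CTLA4-Ig library (24.1 FPKM) lies just above the highest control (23.9 FPKM).

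The level of the 10 genes spanned a wide range within the same sorted population. FPKM is scaled for transcript length, so genes can be set side by side. Nfkb1 stood highest with a mean of 69.9 FPKM over the 6 libraries, followed by Tab2 at 51.1, Nfatc1 at 23.9, Map3k7 at 18.7 and Nfkb2 at 16.1. Traf6 had 11.5, Relb 5.15, Mitf 2.88, Tnfrsf11a 1.71 and Prdm1 0.851. The ranges over libraries of neighbours in this order did not overlap, except for Map3k7 (17.1 to 19.4 FPKM) and Nfkb2 (14.2 to 19.3 FPKM), whose order is not separated by the spread. Among all tested genes 87.9% had a lower mean FPKM than Nfkb1, 65.5% a lower one than Nfatc1 and 5.72% a lower one than Tnfrsf11a. The receptor was thus the scarcest tested transcript of the set in bulk RNA, below every step that it signals to except the untested Prdm1. The population was mixed, so this order need not hold within a single cell type.

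Tnfrsf11a encodes RANK, the receptor of RANKL (chromosome 1, 105780673 to 105849444, GRCm38.p6). It stood at 1.77, 1.502 and 1.54 FPKM in CTLA4-Ig libraries 1, 2 and 3 and at 1.98, 1.83 and 1.61 in control libraries 1, 2 and 3. The lowest control library lay inside the CTLA4-Ig range, so the groups overlapped. The log2 difference was -0.11 ± 0.12 (SE), with a 95% interval of -0.39 to 0.17 (limma, adjusted p = 0.920). Leaving out 1 library gave -0.16 (control library 3) to -0.063 (control library 1). The gene rests on few fragments, about 68 to 91 per library by the estimated depth and a transcript of 5027 bases, so counting alone gives an error of 12.1% in the lowest library.

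The genes of the ligand side lay near 0 FPKM in the sorted cells. Tnfsf11, which encodes RANKL, stood at 0.148, 0.262 and 0.0859 FPKM under CTLA4-Ig and at 0, 0.0477 and 0.0994 in the controls, about 0 to 5 fragments per library. Tnfrsf11b, which encodes osteoprotegerin, was listed at 0 in 3 libraries and reached 0.0402 FPKM at most. Lgr4, which encodes another receptor that RANKL can bind, lay between 0.353 and 0.743 FPKM. These 3 genes were below the level for testing. Markers of osteoblasts and stroma, a main source of RANKL, summed to 13.1 to 31.3 FPKM over 7 genes. Runx2 averaged 11.9 FPKM, Col1a1 4.13, Col1a2 3.48 and Cxcl12 2.66, while Bglap, Alpl and Sp7 averaged under 1 FPKM.

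Traf6 encodes the adaptor and ubiquitin ligase that links RANK to its kinases (chromosome 2, 101678420 to 101701668). Its values were 11.3, 11.1 and 11.6 FPKM under CTLA4-Ig and 12.0, 10.97 and 11.8 in the controls, and the groups overlapped throughout. The log2 difference was -0.03 ± 0.07 (SE), with a 95% interval of -0.19 to 0.12 (limma, adjusted p = 0.964). Of the 9 other adaptors and TRAF regulators listed, all were tested, 0 had an unadjusted p under 0.05, 2 were positive and 7 negative. Traf3, which holds the non-canonical branch in check, stood at 14.6 ± 0.751 FPKM under CTLA4-Ig and 13.3 ± 1.21 in the controls (SD, n = 3). Gab2, a scaffold bound by RANK, had 17.9 FPKM in control library 1 against 9.96 to 12.8 in the other 5.

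The TAK1 complex was among the steadiest steps. Map3k7, which encodes the kinase TAK1 (chromosome 4, 31963492 to 32023470), stood at 19.1, 17.1 and 18.8 FPKM under CTLA4-Ig and at 19.1, 18.5 and 19.4 in the controls. Its log2 difference was -0.05 ± 0.06 (SE), with a 95% interval of -0.20 to 0.11 (limma, adjusted p = 0.935), and it was -0.00053 without CTLA4-Ig library 2. Tab2, whose product brings TAK1 to ubiquitin chains (chromosome 10, 7905648 to 7956255), had 50.2, 50.9 and 51.9 FPKM under CTLA4-Ig and 50.02, 49.3 and 54.0 in the controls. The CTLA4-Ig values lay inside the control range, and the log2 difference was -0.0015 ± 0.06 (SE), with a 95% interval of -0.14 to 0.13 (limma, adjusted p = 0.9997). The highest library exceeded the lowest by a ratio of 1.10 for Tab2 and 1.13 for Map3k7.

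Among the kinase genes around TAK1 the differences were small, and with all libraries most were negative. Tab1, an activator subunit of TAK1, stood at 9.26, 8.82 and 9.21 FPKM under CTLA4-Ig and at 10.8, 9.68 and 11.3 in the controls, so each control library was above each CTLA4-Ig library. Its log2 difference was -0.19 ± 0.08 (SE; limma, unadjusted p = 0.0385, adjusted p = 0.784), and it was the 1 gene of 7 TAK1 and IKK kinase genes at an unadjusted p under 0.05. Over all tested genes 6.07% had such a p, and the groups were apart in 12.2%. Of the 7 genes 6 were negative, against 5683 of all 10865 tested genes. Without CTLA4-Ig library 1, or without control library 3, 3 of the 7 were positive. Ikbkb, a catalytic subunit of the IKK complex, had 54.0 ± 3.87 and 57.7 ± 3.56 FPKM under CTLA4-Ig and control IgG (SD, n = 3), and Map3k14, the kinase NIK of the non-canonical branch, had 9.01 ± 0.764 and 9.07 ± 0.886.

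Among the NF-kB members, Nfkb1 was the most even and Relb the least. Nfkb1, which encodes p105 and its product p50 of the canonical branch (chromosome 3, 135584655 to 135691969), stood at 73.7, 68.9 and 67.4 FPKM under CTLA4-Ig and at 64.1, 69.9 and 75.4 in the controls. Control libraries 1 and 3 were the lowest and highest of all 6. The log2 difference was 0.0059 ± 0.07 (SE), with a 95% interval of -0.17 to 0.18 (limma, adjusted p = 0.995).

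Nfkb2, the p100 gene (chromosome 19, 46300994 to 46312400), had 17.2, 14.8 and 14.2 FPKM under CTLA4-Ig and 15.8, 15.2 and 19.3 in the controls. Control library 3 was again the highest, and the groups overlapped. The log2 difference was -0.11 ± 0.11 (SE), with a 95% interval of -0.38 to 0.15 (limma, adjusted p = 0.911), and -0.0124 without control library 3. Exons of Nfkb2 overlap Psd and the noncoding AC114539.1 on the other strand; Psd averaged 0.920 FPKM, and whether counting used strand is not given in the sources used here.

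Relb, the DNA-binding partner of p52 (chromosome 7, 19606217 to 19629438), had 5.33, 5.12 and 5.29 FPKM under CTLA4-Ig. In control libraries 1, 2 and 3 it had 5.17, 3.59 and 6.37 FPKM, so the controls held both the lowest and the highest value and enclosed the CTLA4-Ig libraries. The log2 difference was 0.07 ± 0.17 (SE), with a 95% interval of -0.33 to 0.48 (limma, adjusted p = 0.972). Without control library 2 it was -0.11.

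**Figure D2:**
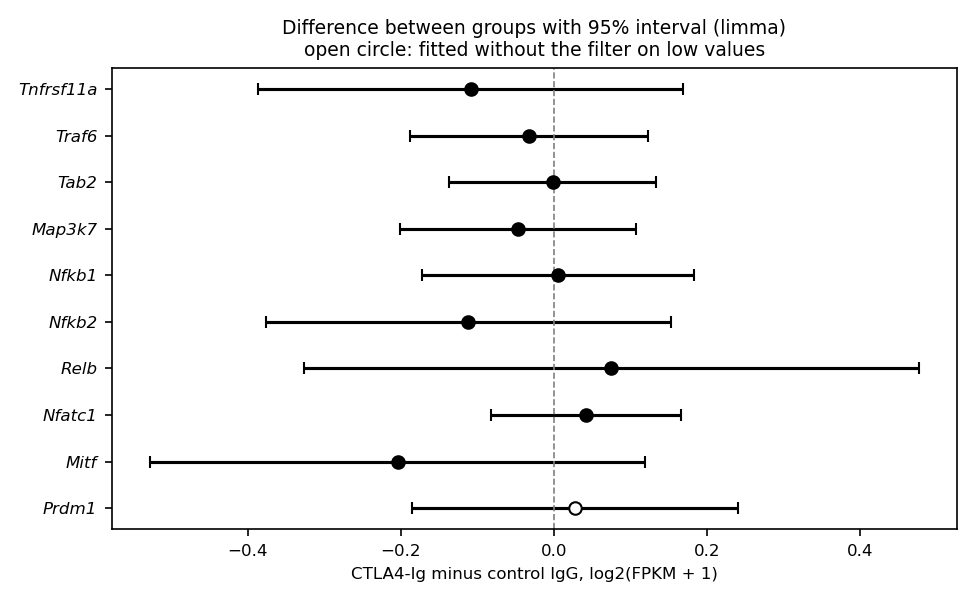
Difference of CTLA4-Ig minus control IgG in log2(FPKM + 1) for the 10 genes, with points for limma's estimate and bars for its 95% interval. Every interval includes 0; the narrowest is that of Nfatc1 (-0.08 to 0.17) and the widest that of Relb (-0.33 to 0.48), and the open circle marks Prdm1, fitted without the filter on low values.

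The mRNA levels of genes of the non-canonical and canonical branches were compared within each library. Such ratios do not measure protein processing or the activity of a branch. The level of Nfkb2 on the log2(FPKM + 1) scale minus that of Nfkb1 was -2.12 ± 0.0692 under CTLA4-Ig and -2.0 ± 0.116 in the controls (SD, n = 3), a difference of -0.12 (two-sided exact permutation p = 0.2, adjusted p = 0.6 over 3 such ratios, where 3 against 3 libraries cannot go below 0.1). Relb minus Rela, the gene of the main canonical subunit p65, was -2.40 ± 0.0348 and -2.46 ± 0.296 (SD, n = 3), a difference of 0.05 (two-sided exact permutation p = 0.8, adjusted p = 0.9). Without control library 2 that difference was -0.10. These tests cannot pass a threshold of 0.05 at this number of libraries.

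Several NF-kB genes are themselves known targets of NF-kB, so promoters of the pathway were searched for kB-type sequences, and the matches are shown to set the members beside the known feedback genes. RefSeq promoter windows of GRCm38.p6, 250 bases before to 50 after each transcript start, were matched for 7 of the 10 members (12 windows) and for 64 of the 90 other pathway genes (92 windows). The motif GGGANTTCC (N is any base) and a form longer by 1 base, with 3 T in place of 2 after the N, were searched on both strands. The longer form was in 0.411% of all 32851 windows. It was found in 3 of the 12 member windows, at 1 site of Map3k7 and at 1 site of Nfkb2 that lies in overlapping windows of 2 starts, and in 2 of the 92 others, at Nfkbia and Cyld. The shorter form, in 1.68% of all windows, was found once more in Nfkb2 and in 6 other windows, among them those of Rel, Bcl3, Traf3 and Tnfaip3. Each site is given on the strand of its gene with 10 bases on either side, and capitals mark the match:
Map3k7, chr4:31964005-31964034, plus strand: ccccgggtcaGGAAATTCCCcgctcgggtc
Nfkb2, chr19:46304688-46304716, plus strand: ggatcgtcacGGGAATTCCccccctcggg
Nfkb2, chr19:46305695-46305724, plus strand: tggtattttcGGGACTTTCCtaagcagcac
Nfkbia, chr12:55492657-55492686, minus strand: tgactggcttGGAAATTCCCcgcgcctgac
Rel, chr11:23771042-23771070, minus strand: gtaagcagcgGGAAATCCCcccccctccc
Bcl3, chr7:19822734-19822762, minus strand: cggcggcaggGGAAGTCCCgctgcccggc
Traf3, chr12:111166351-111166379, plus strand: gcggcccgcgGGGATTTCCagcgcgcgag
In the Map3k7, Nfkbia, Rel and Bcl3 windows the match reads GGGA on the strand opposite to the gene. The windows of Tnfrsf11a, Traf6, Tab2, Mitf and Prdm1 held neither form. A match is a description of letters and was not tested as a binding site here.

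Single libraries set the range of several of these genes. Nfkbia, which encodes the inhibitor IκBα, stood at 86.3, 81.1 and 92.5 FPKM under CTLA4-Ig and at 154, 80.4 and 86.5 in the controls. Control library 1 alone was high, while the same library was the lowest of the 6 for Nfkb1 and for Rel (11.8 FPKM). Bcl3, a nuclear cofactor of p50 and p52 named after its values were seen, had 32.5 FPKM in control library 1 and 9.44 to 15.9 in the other 5. The log2 differences were -0.24 ± 0.23 for Nfkbia and -0.37 ± 0.38 for Bcl3 (SE; limma, adjusted p = 0.911 and 0.914), and 0.0521 and 0.0704 without control library 1. Control library 1 also stood apart in erythroid markers, which summed to 7.31 FPKM over 4 genes against 70.8 to 119 in the other 5, and in Cx3cr1 itself (12.3 against 16.6 to 32.5 FPKM). The part of that difference between libraries in these values was not tested.

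Of the 8 other NF-kB subunits and inhibitors, all were tested and 1 had an unadjusted p under 0.05. This was Nfkbid, which encodes a nuclear IκB protein, at 21.3, 19.9 and 19.6 FPKM under CTLA4-Ig and 17.8, 17.5 and 17.9 in the controls, with no overlap (log2 difference 0.18 ± 0.06, SE; limma, adjusted p = 0.722). Rela stood at 32.1 ± 0.369 FPKM under CTLA4-Ig and 31.6 ± 1.25 in the controls (SD, n = 3). Rel had 13.3 ± 1.12 and 12.99 ± 1.26 FPKM. Nfkbiz, of another nuclear IκB protein, had a log2 difference of 0.18 ± 0.14 (SE) with overlapping groups. With 1 library left out it ran from 0.11 (control library 2) to 0.31 (control library 3).

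**Figure D3:**
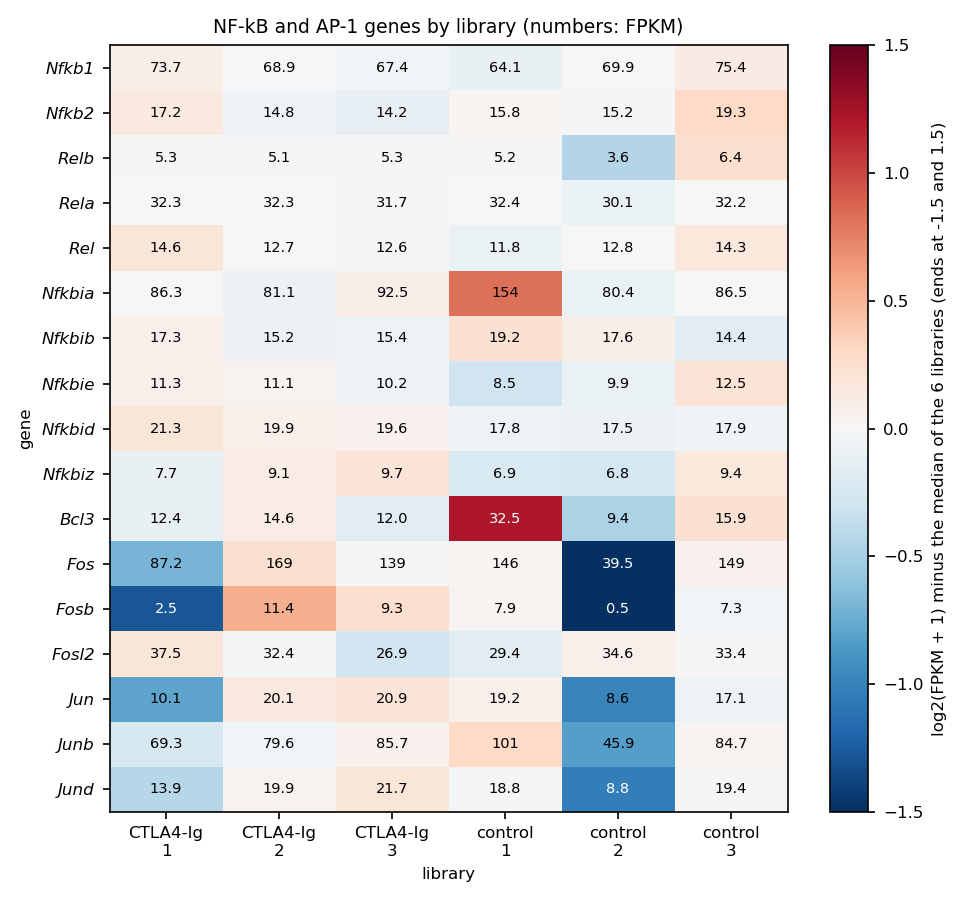
NF-kB and AP-1 genes that averaged at least 1 FPKM (rows) in the 6 libraries (columns); numbers are FPKM and the colour is log2(FPKM + 1) minus the median of the 6 libraries of that gene. Control library 1 is high for Nfkbia (154 FPKM) and Bcl3 (32.5 FPKM). Control library 2 is low for Fos (39.5 FPKM), Fosb, Jun, Junb and Jund, but not for Fosl2 (34.6 FPKM).

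AP-1 is the other immediate input to the NFATc1 gene. The highest library exceeded the lowest by a ratio of 4.27 for Fos and 22.2 for Fosb, against at most 1.78 among the members. Fos, whose product is needed for osteoclast formation, stood at 87.2, 169 and 139 FPKM under CTLA4-Ig and at 146, 39.5 and 149 in the controls. Control library 2 was the lowest of the 6 for Fos, Fosb, Jun, Junb and Jund (Jun and Junb were named after their values were seen), and also for Relb, Traf6, Tab2 and Nfatc1. The log2 difference of Fos was 0.41 ± 0.53 (SE; limma, adjusted p = 0.928). Of 7 AP-1 genes 6 were tested, 0 had an unadjusted p under 0.05 and the median log2 difference was 0.23. Fosb had 0.67 ± 0.78 and Jund 0.28 ± 0.30 (SE). Without control library 2 the median turned to -0.16, with Fos at -0.21, Fosb at -0.17, Jun at -0.15, Junb at -0.24 and Jund at -0.063. Without CTLA4-Ig library 2 Fos was 0.21 and Fosb 0.32. Among the other AP-1 genes, Fosl1 was listed at 0 in 4 libraries. Fosl2, named after its values were seen, had 34.6 FPKM in control library 2 and 26.9 to 37.5 over the 6. A loose form of the AP-1 motif, TGANTCA (N is any base), was present in 7.81% of all promoter windows. It was in 2 of the 12 member windows, 1 of Nfkb2 and 1 of Prdm1. These member matches read TGAATCA and were not tested as AP-1 sites. The Prdm1 match is shown in the same way:
Prdm1, chr10:44458780-44458806, minus strand: ctggtaggagTGAATCAgaccgtcagt

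Nfatc1, the master transcription factor of osteoclast formation (chromosome 18, 80606205 to 80713071), was the steadiest of the 10 genes. It stood at 24.6, 24.1 and 24.1 FPKM under CTLA4-Ig and at 23.7, 23.0 and 23.9 in the controls, so each CTLA4-Ig library was above each control library by a narrow margin. Over all tested genes the groups were apart in this way in 12.2%, and CTLA4-Ig was above in 6.5%, and Nfatc1 was the 1 of the 9 tested members without overlap. The means were 24.3 ± 0.256 and 23.5 ± 0.507 FPKM (SD, n = 3), a log2 difference of 0.04 ± 0.05 (SE) with a 95% interval of -0.08 to 0.17 (limma, adjusted p = 0.928). The SD of Nfatc1 over the 6 libraries was 0.0312 on the log2(FPKM + 1) scale, and 0.736% of tested genes had a smaller one; the median over tested genes was 0.119. Tab2, Traf6 and Map3k7 also had small SDs, with 3.86, 4.96 and 10.2% of tested genes below them, while Relb lay above 83.6% and Mitf above 77.0%.

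The calcium arm that feeds NFATc1 held 9 listed genes, of which 8 were tested, 0 had an unadjusted p under 0.05, 4 were positive and 4 negative. Ppp3ca, a catalytic subunit of the phosphatase calcineurin, had 57.8 ± 3.07 FPKM under CTLA4-Ig and 52.6 ± 1.26 in the controls (SD, n = 3). Its paralogue Ppp3cb had 25.2 ± 0.955 and 27.1 ± 0.942 FPKM, in the other direction, and in both the groups did not overlap (limma, adjusted p = 0.841 and 0.877). The related factor genes Nfatc3 (27.0 FPKM) and Nfatc2 (3.68 FPKM), by mean over the 6 libraries, lay above and below Nfatc1. Camk4, a calcium-dependent kinase gene, was under the level for testing at 0.157 to 0.249 FPKM.

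Immunoreceptor (ITAM) signals run beside RANK and raise calcium. Of 11 genes of this co-stimulation 10 were tested and 0 had an unadjusted p under 0.05. Tyrobp, the adaptor DAP12, had 2579, 2568 and 2539 FPKM under CTLA4-Ig and 2162, 2506 and 2479 in the controls, with no overlap (log2 difference 0.11 ± 0.09, SE; limma, adjusted p = 0.904). Oscar, an osteoclast receptor induced by NFATc1, was listed at 0 in all 6 libraries. The difference of Tyrobp was 0.040 without control library 1. Pira2, a paired immunoglobulin-like receptor gene with close relatives that could share its reads, had -0.13 ± 0.10 (SE), and -0.035 without control library 1. Csf1r, the M-CSF receptor gene, whose signal induces RANK, had -0.04 ± 0.13 (SE), and leaving out 1 library gave from -0.13 (control library 1) to 0.086 (control library 3).

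Mitf encodes a partner of NFATc1 at resorption genes (chromosome 6, 97807002 to 98021360), and its value here sums transcripts from several promoters. It stood at 3.10, 2.05 and 2.72 FPKM under CTLA4-Ig and at 2.85, 3.25 and 3.34 in the controls. CTLA4-Ig library 2 was the lowest, and CTLA4-Ig library 1 lay inside the control range. The log2 difference was -0.20 ± 0.14 (SE), with a 95% interval of -0.53 to 0.12 (limma, adjusted p = 0.890). It was the largest in size among the members, with 86.9% of tested genes showing a smaller one, and it was -0.0848 without CTLA4-Ig library 2.

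Of 6 listed MITF partners and co-regulators 5 were tested, 3 positive and 2 negative, with a median log2 difference of 0.057. The 2 negative genes were among the 7 pathway genes at an unadjusted p under 0.05 in limma. Tfec, the family member most characteristic of macrophages and osteoclasts, had 37.0, 34.3 and 36.2 FPKM under CTLA4-Ig and 43.2, 37.6 and 43.0 in the controls (log2 difference -0.20 ± 0.07, SE; limma, adjusted p = 0.753). Myc, a factor induced by RANKL, had 23.2, 26.4 and 22.7 against 29.5, 29.0 and 27.2 FPKM (log2 difference -0.24 ± 0.08, SE; limma, adjusted p = 0.720). In both genes each CTLA4-Ig library was below each control library, though neither passed the test over all genes.

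Prdm1 encodes Blimp-1, which represses genes that hold osteoclast formation back (chromosome 10, 44437174 to 44528558). It stood at 0.933, 0.991 and 0.688 FPKM under CTLA4-Ig and at 0.872, 0.783 and 0.837 in the controls, about 40 to 47 fragments per library. The CTLA4-Ig libraries enclosed the controls. Fitted without the filter on low values, its log2 difference was 0.03 ± 0.09 (SE), with a 95% interval of -0.18 to 0.24 (limma, adjusted p = 0.974).

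The repressors that Blimp-1 is known to act on were far more abundant than Prdm1. Irf8 stood at 205, 170 and 174 FPKM under CTLA4-Ig and at 127, 185 and 216 in the controls, with control library 1 the lowest. Bcl6 had 23.5 ± 2.67 FPKM under CTLA4-Ig and 20.9 ± 1.57 in the controls (SD, n = 3). Within a library the log2 level of Prdm1 minus that of Irf8 was -6.62 ± 0.169 under CTLA4-Ig and -6.56 ± 0.412 in the controls (SD, n = 3; two-sided exact permutation p = 0.9, adjusted p = 0.9), a difference of -0.06 that was 0.18 without control library 1 and 0.0022 without CTLA4-Ig library 1. Of 9 repressors, all tested, 0 had an unadjusted p under 0.05, and Id3, an inhibitor of helix-loop-helix factors, had a log2 difference of 0.25 ± 0.22 (SE) that was 0.029 without CTLA4-Ig library 2 and 0.44 without CTLA4-Ig library 3.

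**Figure D4:**
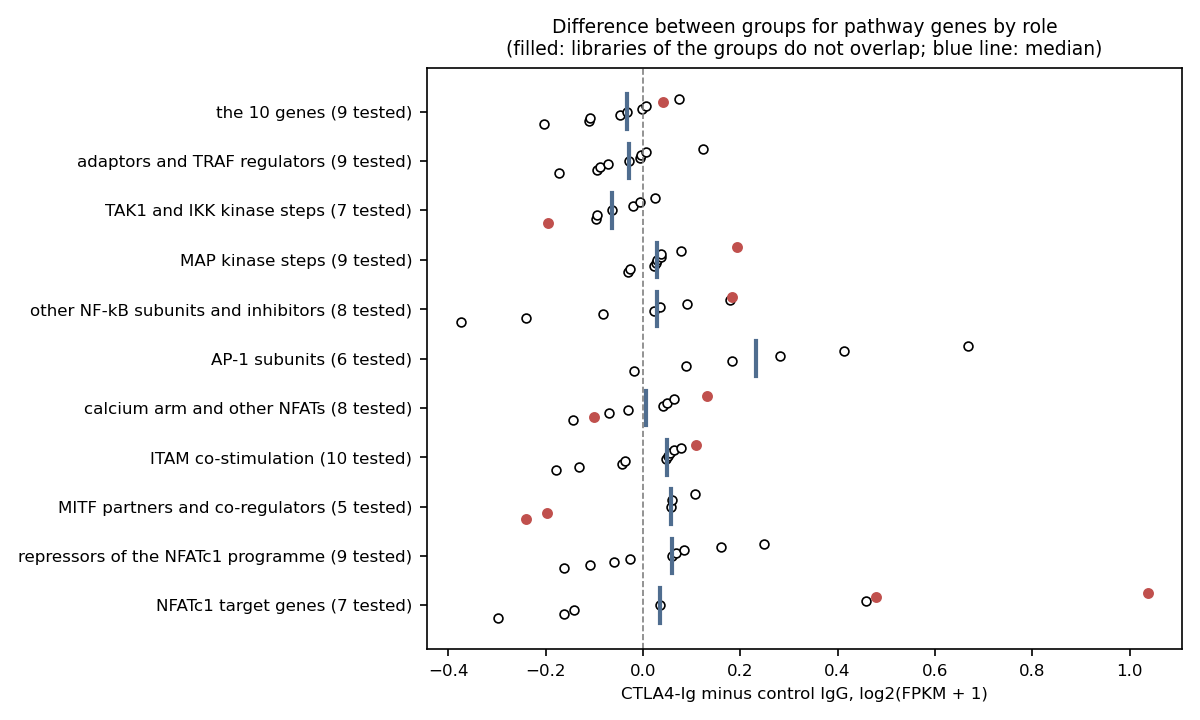
Difference of CTLA4-Ig minus control IgG in log2(FPKM + 1) for every tested gene of the pathway, in rows by role, with filled points where the groups were fully apart and a blue line at the median. Most genes lie close to 0 and Mmp9, at 1.04, lies farthest to the right.

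At the end of the pathway, NFATc1 target genes ranged from abundant to undetected. Acp5, which encodes the tartrate-resistant acid phosphatase of osteoclasts, had 16.7, 15.7 and 24.9 FPKM under CTLA4-Ig and 27.0, 18.1 and 19.05 in the controls. Ctsk, the collagen-degrading cathepsin K, had 1.41, 2.25 and 4.17 against 3.13, 2.05 and 4.98 FPKM, and the groups overlapped in both genes. Siglec15 was listed at 0 in all 6 libraries and Calcr, the calcitonin receptor gene, in 5 of 6 (these were named after their values were seen). Of 12 target genes 7 were tested and 2 had an unadjusted p under 0.05 in limma, both positive. Over all tested genes 6.07% had such a p, and 4.09% had it with higher values under CTLA4-Ig. Itgb3, the β3 integrin chain, had 10.7, 11.4 and 11.6 FPKM under CTLA4-Ig and 5.30, 10.1 and 8.65 in the controls. Its log2 difference was 0.48 ± 0.20 (SE, limma adjusted p = 0.816). With 1 library left out it ran from 0.240 (control library 1) to 0.651 (control library 2). Mmp9, a matrix metalloprotease, had 195, 237 and 184 FPKM under CTLA4-Ig and 104, 128 and 73.3 in the controls. Its log2 difference was 1.04 ± 0.20 (SE, limma adjusted p = 0.720). With 1 library left out it ran from 0.82 (control library 3) to 1.22 (control library 2). Mmp9 is also among the 13 neutrophil markers, whose summed level did not overlap between the groups.

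Beside the 10 genes, the 90 listed genes of the pathway thus gave 78 tested, of which 0 were called and 7 had an unadjusted p under 0.05, 4 positive and 3 negative. That is 8.97%, against 6.07% over all tested genes, and the count was 4 without CTLA4-Ig library 1 or control library 3 and 3 without CTLA4-Ig library 2 or 3. The seventh gene was Mapk3, the MAP kinase ERK1, with 164, 186 and 161 FPKM under CTLA4-Ig and 152, 150 and 144 in the controls. Among the 9 MAP kinase genes 7 were positive, with Map2k4, a kinase of the JNK branch, at 0.08 ± 0.09 (SE). The groups did not overlap in 10 of the 78 (12.8%, against 12.2% of all tested genes). The median difference of the 78 was 0.02 on the log2(FPKM + 1) scale.

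Which library was the highest or the lowest was counted for the members and for the other pathway genes. Control library 3 was the highest of the 6 for 6 of the 10 members (Tab2, Map3k7, Nfkb1, Nfkb2, Relb and Mitf), where it was the highest for 16.2% of all tested genes. Control library 2 was the lowest for 4 of the 10 (Traf6, Tab2, Relb and Nfatc1), where it was the lowest for 12.6% of all tested genes. Across the 78 other pathway genes control library 1 was the highest or the lowest in 46 (59.0%), against 49.4% of all tested genes. Among the 10 members control library 1 was the highest for 2 and the lowest for 1. Control library 3 was the highest or the lowest in 32.1% of the 78, against 31.4% of all tested genes.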

How the data were processed

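RNA-seq values of 6 libraries were used, 3 per group, and titles give their numbers. TruSeq kits for stranded mRNA were used on miRNeasy extracts, per the labels' protocols. The submitters' processing notes name build mm10, Cuffnorm 2.2.1, TopHat2 2.0.13 with Bowtie2 2.2.3, and SAMtools 0.1.19. The settings, the annotation and how strand was used are things not given in the sources used here. Deposited values are FPKM, as scaled between libraries by the authors.

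For limma 3.58.1 (R 4.3.3; eBayes with a trend, 1 factor for the group) values were taken as log2(FPKM + 1) in the 10865 genes that averaged 1 FPKM or more, Benjamini-Hochberg adjusted, threshold 0.05. The test was checked on simulated data. Intervals are limma's 95% intervals of single genes. Ratios within a library were compared by exact permutation. Depth was estimated in Python 3.11.15 (pandas 2.3.3, numpy 2.4.6, matplotlib 3.10.9) from genes with 1 GENCODE transcript: low values peaked at multiples of 1 fragment, but only 68.01 to 75.35% of them lay within 0.1 fragment of a whole number, so no counts were rebuilt. Fragments per member assume the longest coding transcript and cover counting error only.

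The members, pathway lists, marker lists and tests were chosen with earlier results of these data known, and no list was tested as a set. All 90 other pathway genes were matched, Pirb and Spi1 through an older symbol. Besides the 10 members, the rule named the 2 genes of each role with the smallest unadjusted p and 17 fixed genes. Of these the text gives a part. Bcl3, Nfatc2, Nfatc3, Camk4, Fosl1, Fosl2, Jun, Junb, Siglec15, Calcr, Cyld, Tnfaip3 and the marker genes were named outside that rule. Alternatives changed the filter (none, or a mean of 5 FPKM or more), the pseudocount (0.1 and 0.5), the scaling (median of ratios, quantiles) and the fit (array weights, a robust prior, no trend, a block for the replicate number), or left out each library. Gene positions come from the RefSeq table of GRCm38.p6, the same assembly as mm10. Promoters of Nfkb1, Relb and Nfatc1 were not analysed here.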

Additional observations from a re-analysis of the deposited data

How the results depend on the processing

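Of the 9 tested members 0 were called in any of the 16 alternatives that could fit them, and Prdm1 was tested only without the filter. The lowest adjusted p of a member was 0.680, for Mitf in limma with array weights. Directions held for Tnfrsf11a, Traf6, Map3k7, Nfkb2, Nfatc1 and Mitf wherever they could be fitted (Tnfrsf11a and Mitf not at a mean of at least 5 FPKM). Tab2 turned to 0.0018 with the median of ratios, and Nfkb1 to -0.0061 with quantile normalization and -0.0165 with array weights. Directions of Tab2 and Nfkb1 also turned with 1 library left out. So did those of Relb (from 0.075 to -0.110 without control library 2) and Prdm1 (from 0.028 to -0.0189 without CTLA4-Ig library 2). Leaving out 1 library gave -0.160 to -0.0634 for Tnfrsf11a, -0.0692 to -0.00744 for Traf6, -0.0760 to -0.00053 for Map3k7, -0.188 to -0.0124 for Nfkb2, 0.0253 to 0.0541 for Nfatc1, -0.299 to -0.0848 for Mitf, -0.0264 to 0.0382 for Tab2, -0.0532 to 0.0621 for Nfkb1, -0.110 to 0.232 for Relb, -0.0189 to 0.1002 for Prdm1, -0.184 to -0.0745 for Nfkb2 minus Nfkb1, -0.100 to 0.195 for Relb minus Rela and -0.217 to 0.176 for Prdm1 minus Irf8. In 45 of the 78 other pathway genes it turned the direction at least once. It also gave 0 to 6 genes called over all genes (against 0 with all 6 libraries), 347 to 868 at an unadjusted p under 0.05 (against 659), and 3 to 6 of the other pathway genes (against 7). The cause was not tested. With the replicate block limma called 0 genes, 619 had an unadjusted p under 0.05, 6 of them other pathway genes; in this balanced design the block cannot move a difference of means (Nfkb2 minus Nfkb1 is -0.118 in both fits). Same-numbered libraries did not deviate together (correlations of deviations -0.154, -0.0942 and -0.0235 across genes), so the numbers are not taken as pairs, and the block changed no call. Tnfrsf11a, Relb, Mitf and Prdm1 rest on 40 to 156 estimated fragments per library, which limits their precision; counting error at the lowest library was 10.6 to 15.8%.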
